A study of Mus musculus with 6 samples.

Results

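The mRNAs of 9 genes that mark brain endothelial cells, Cldn5, Cdh5, Esam, Pecam1, Flt1, Tek, Slco1a4, Ly6c1 and Vwf, were followed in RNA from mouse synaptoneurosomes. They were chosen by name, were all found in the deposited table, and are 9 of its 21958 protein-coding genes. Synaptoneurosomes are a filtered brain fraction enriched in pinched-off pre- and postsynaptic terminals. They were prepared from the hippocampus and adjacent cortex of FVB mice aged 6 to 8 weeks, with tissue of several animals pooled. In the polyribosome group (n = 3), synaptoneurosomes were given 50 µM NMDA and 10 µM glutamate for 30 s, then 120 µM APV, an NMDA receptor blocker. After 20 min the light and heavy polyribosomes were collected from a sucrose gradient. In the total RNA group (n = 3), labelled as unstimulated, RNA was extracted without a gradient. The methods say that unstimulated controls were kept on ice with cycloheximide. The methods also describe total RNA as a retained portion of the lysate loaded on the gradient, so whether it was unstimulated rests on the labels. By the labels the groups differed in stimulation, incubation and fraction, which cannot be told apart, and 1 library of each group came under each replicate number.

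Endothelial cells line the vessels of the brain and form the blood-brain barrier. Tight junctions built from claudins and adherens junctions built from cadherins seal neighbouring cells, transporters carry solutes across them, and receptors for vascular endothelial growth factor (VEGF) and angiopoietins govern vessel growth and stability. These cells are not part of the synapse, so their mRNAs show how much vascular RNA such a preparation holds and how that RNA is divided between its fractions. In bulk RNA, fewer cells of a type and less RNA per cell cannot be told apart.

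All 9 mRNAs were present in all 6 libraries, with 12 to 1057 counts each. Cldn5 had the largest difference between the fractions, about 1.9-fold higher on polyribosomes. It was the only one whose groups did not overlap, by a gap within counting error. The other 8 did not move together. Ly6c1 and Esam, like Cldn5, were higher in all 3 same-numbered pairs, as were 30.2% of all genes tested. Tek and Vwf were lower in all 3, as were 30.6% of all genes tested. The pair differences of Vwf, -0.07 to -0.05 on the log2 scale, were within counting error. Cdh5, Pecam1, Flt1 and Slco1a4 changed sign between pairs. With edgeR's quasi-likelihood test and Benjamini-Hochberg adjustment over 12255 genes, 0 of the 9 passed an adjusted p of 0.01, where 3.07% of all genes tested passed (0.710% higher and 2.36% lower). At an unadjusted p under 0.05 the same test gave 2 higher genes, Cldn5 and Ly6c1, and 0 lower, against a background of 15.4% and 17.1%. DESeq2 also called 0 at an adjusted p of 0.01, where it called 3.31% of genes higher and 3.83% lower. With the replicate number as a block, edgeR called 1 of the 9, Cldn5, where it called 11.8% of all genes higher.

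The depth of the 6 libraries ranged from 1044955 to 7361580 counts on protein-coding genes, with total RNA replicate 3 the shallowest. Levels are given as CPM, a gene's counts relative to the library total, scaled with edgeR's TMM factors, and positive log2 fold changes mean higher on polyribosomes. All 10 neuronal and synaptic markers examined, Camk2a, Dlg4 and Snap25 among them, were detected, with a summed level of 11300 to 12600 CPM in total RNA. The 9 endothelial mRNAs summed to 430, 320 and 585 CPM on polyribosomes 1 to 3 and to 357, 337 and 372 CPM in total RNA 1 to 3, so the groups overlapped. Ranked by mean CPM among all genes tested, Flt1 stood at percentile 88.5, Cldn5 at 73.4 and Vwf at 29.4.

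Of the 9 mRNAs, Ly6c1 has a close relative whose reads could be mistaken for its own. Ly6c1 and Ly6c2 lie near each other on chromosome 15, and their coding sequences of 393 bases are 97.7% identical in GENCODE vM21. The 100 coding bases in which they differ most, from the start codon on, are given here. Within the coding sequence, a read has to cover differing bases to be assigned to 1 of the genes. Exon sequence outside the coding bases was not compared. The 100 bases lie on the minus strand of GRCm38, span 1 exon junction, and extend over chr15:75047440-75048511 in Ly6c1 and chr15:75110598-75111667 in Ly6c2. The capitals mark the 6 differing bases.
Ly6c1: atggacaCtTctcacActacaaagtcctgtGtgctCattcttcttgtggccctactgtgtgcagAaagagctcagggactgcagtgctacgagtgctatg
Ly6c2: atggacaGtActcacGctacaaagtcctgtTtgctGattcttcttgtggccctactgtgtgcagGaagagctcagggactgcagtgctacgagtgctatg
The longest stretch without a difference is 188 bases. Reads placed wholly within it match both genes, and how the counting treated them is not given in the sources used here. The deposited counts assigned 28 to 292 reads per library to Ly6c1 and 0 to 2 to Ly6c2. Slco1a4 and its relative Slco1a5, on chromosome 6, are 89.4% identical over 2010 coding bases. Slco1a5 had 0 to 2 counts per library, Slco1a1 had 0 or 1, and Slco1a6 had 0 in all 6. No other annotated gene shares exon sequence with any of the 9, although the antisense gene Gm29682 lies within the span of Cdh5.

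Cldn5 encodes a claudin that seals the tight junctions of the blood-brain barrier. The gene (ENSMUSG00000041378.1) has a single exon, on chromosome 16 of GRCm38 from 18776847 to 18778260. Its mRNA measured 65.9, 56.0 and 107 CPM on polyribosomes 1 to 3 (487, 372 and 520 counts) and 26.8, 43.9 and 55.6 CPM in total RNA 1 to 3 (108, 131 and 58 counts). The lowest polyribosome library thus lay just above the highest total RNA library. Groups separated in this way, with polyribosomes higher, were found for 17.4% of all genes tested, and with polyribosomes lower for 18.9%. The means were 76.3 ± 27.1 CPM (SD, n = 3) and 42.1 ± 14.5 CPM. On the log2 scale the difference was 0.92 (standard error 0.27, adjusted p = 0.0359, edgeR's quasi-likelihood test), which missed the threshold of 0.01 and passed 0.05, as 6.52% of all genes did in this direction. With the replicate number as a block it was 0.86 (standard error 0.14, adjusted p = 3.96e-07, same test), and Cldn5 was then the only gene called, 1 of the 9 (11.1%), where that fit called 11.8% of all genes higher and 13.2% lower. Without pair 1 the blocked value was 0.60 and the call was lost (adjusted p = 0.0108, same test). The transcript is 60.5% G or C, more than 95.8% of the genes tested have. A correction for GC content and length left 0.38 (adjusted p = 0.247), and together with the block 0.34 (adjusted p = 0.0339, same test). None of the 9 was called under either correction, where 0.253% and 9.02% of all genes were called higher.

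**Figure D1:**
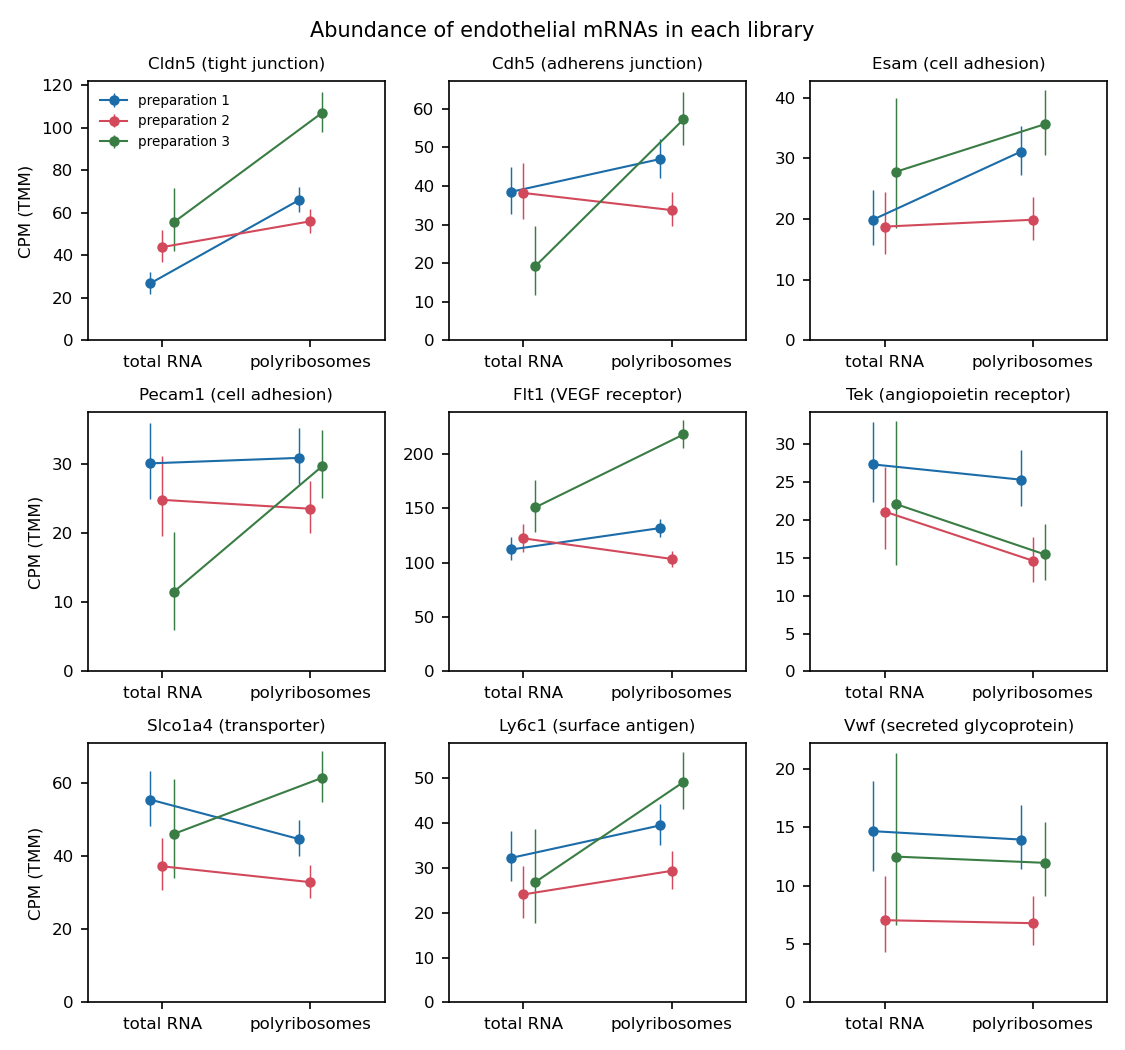
Abundance of the 9 endothelial mRNAs in each library, in TMM-scaled CPM on axes that start at 0, with total RNA at left and polyribosomes at right. Lines join libraries with the same replicate number (preparation), and bars are 95% Poisson intervals, which cover counting error only. Cldn5 is the only panel in which all polyribosome libraries, from 56.0 to 107 CPM, lie above all total RNA libraries, and Pecam1 and Cdh5 are lowest in total RNA of preparation 3.

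The other junction mRNAs did not share the separation of Cldn5. Cdh5 encodes VE-cadherin, the cadherin of endothelial adherens junctions, and lies on chromosome 8 from 104101625 to 104144502. It measured 46.9, 33.7 and 57.2 CPM on polyribosomes and 38.5, 38.2 and 19.2 CPM in total RNA. The lowest of the 6 values was total RNA replicate 3, which rests on 20 counts (95% Poisson interval 11.7 to 29.6 CPM). Its log2 fold change was 0.44 (adjusted p = 0.224, edgeR's quasi-likelihood test, standard error 0.24), and 0.26 without that library.

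Esam, an immunoglobulin-like adhesion molecule of endothelial tight junctions (chromosome 9 from 37528078 to 37538319), measured 31.1, 19.9 and 35.6 CPM on polyribosomes. In total RNA it measured 19.9, 18.8 and 27.8 CPM. Polyribosome replicate 2 was at the level of total RNA replicates 1 and 2, and the log2 fold change was 0.44 (adjusted p = 0.218, same test). Pecam1, the adhesion molecule CD31 that endothelial cells share with platelets and leukocytes, lies on chromosome 11 from 106654217 to 106750628. It measured 30.8, 23.5 and 29.6 CPM on polyribosomes and 30.0, 24.8 and 11.5 CPM in total RNA. In pairs 1 and 2 both fractions were alike within counting error, and the difference rested on pair 3, in which total RNA held 12 counts (interval 5.95 to 20.1 CPM). Its log2 fold change was 0.22 (95% interval -0.30 to 0.73), and 0.02 without total RNA replicate 3.

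Flt1 and Tek are the receptor tyrosine kinases of the group. Flt1, a VEGF receptor on chromosome 5 from 147561604 to 147726011, had the most counts of the 9. It measured 132, 103 and 218 CPM on polyribosomes and 112, 122 and 151 CPM in total RNA. In both fractions replicate 3 was the highest, and polyribosome replicate 2 was the lowest of all 6. The log2 fold change was 0.24 (95% interval -0.26 to 0.75, adjusted p = 0.511, edgeR's quasi-likelihood test) and became -0.10 without polyribosome replicate 3. The 3 pairs gave 0.23, -0.24 and 0.53, each with an interval from counting error that excluded 0, so the preparations differed in direction by more than counting error.

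Tek, the angiopoietin receptor Tie2, lies on chromosome 4 from 94739289 to 94874976 and had the lowest log2 fold change of the 9. It measured 25.3, 14.6 and 15.4 CPM on polyribosomes and 27.3, 21.1 and 22.1 CPM in total RNA. Polyribosome replicates 2 and 3 were the lowest of the 6, whereas replicate 1 lay within the range of total RNA. The log2 fold change was -0.36 (95% interval -0.86 to 0.14, adjusted p = 0.310, same test), with -0.11, -0.52 and -0.50 in the 3 pairs. It was negative whichever library was left out, from -0.67 to -0.21, and did not pass.

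Slco1a4 encodes an organic anion transporter of the blood-brain barrier (chromosome 6 from 141805440 to 141856199). It measured 44.6, 32.8 and 61.4 CPM on polyribosomes and 55.4, 37.2 and 46.0 CPM in total RNA, and the groups overlapped throughout. The log2 fold change was -0.01 (95% interval -0.50 to 0.48). Differences within that interval remain compatible with the data, and its ends are not a limit of detection. Its transcript, 40.3% G or C, had a lower GC content than all but 5.43% of the genes tested, and with GC content and length corrected for the log2 fold change was 0.44 (adjusted p = 0.300, edgeR's quasi-likelihood test). Under this correction Slco1a4 and Cldn5, at the opposite ends of GC content within the group, thus moved toward each other. The correction removes each library's whole trend with GC content and length, including any part that belongs to the fraction. Such a movement therefore follows from its construction and does not show whether the trend was technical.

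Ly6c1 encodes a lipid-anchored surface antigen of brain endothelium that some leukocytes share (chromosome 15 from 75044018 to 75048830). It measured 39.5, 29.4 and 49.2 CPM on polyribosomes and 32.3, 24.1 and 26.9 CPM in total RNA. In each pair the polyribosome library was the higher, although polyribosome replicate 2 lay below total RNA replicate 1. Its log2 fold change was 0.48 (adjusted p = 0.138), and 0.42 with the replicate block (adjusted p = 0.0229, edgeR's quasi-likelihood test). Vwf encodes von Willebrand factor, a secreted glycoprotein of haemostasis that platelets also hold, and lies on chromosome 6 from 125546774 to 125686679. It was the scarcest of the 9, with 13.9, 6.78 and 11.9 CPM on polyribosomes and 14.7, 7.03 and 12.5 CPM in total RNA, from as few as 13 counts. The 2 fractions of each pair nearly coincided, with log2 differences of -0.07, -0.05 and -0.06. The preparations differed more than the fractions did, with highest over lowest library ratios of 2.06 on polyribosomes and 2.08 in total RNA.

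**Figure D2:**
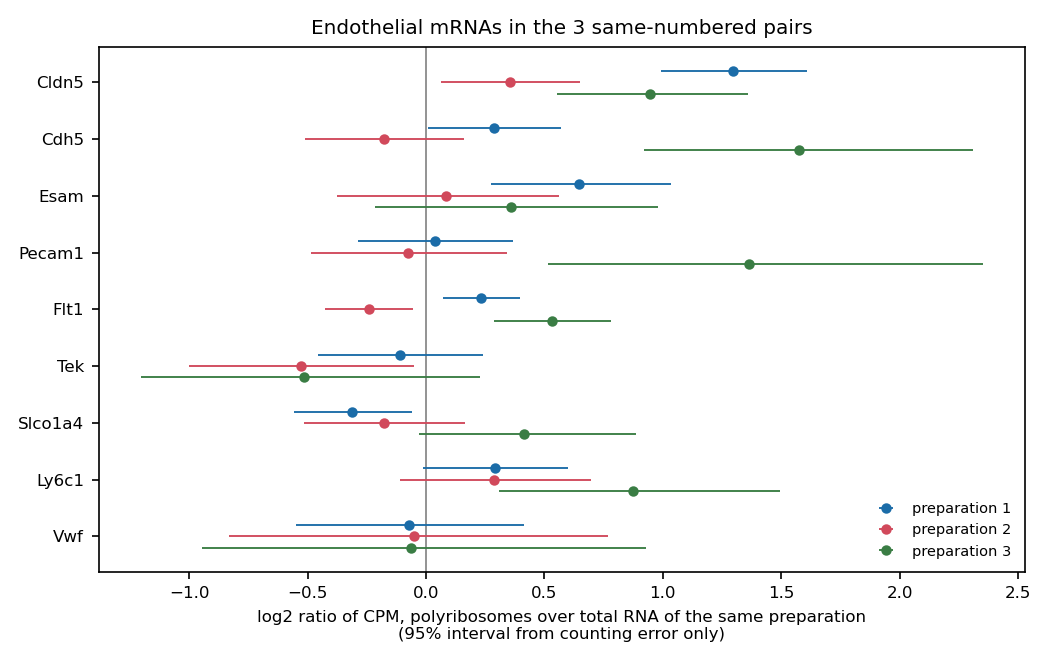
Log2 ratio of CPM between polyribosomes and total RNA of the same replicate number (preparation) for each endothelial mRNA, with exact 95% intervals that cover counting error only. The 3 ratios of Cldn5 all lie above 0, the 3 of Vwf lie together just below 0, and those of Cdh5 and Pecam1 are far higher in preparation 3 than in the other two.

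The differences varied between the pairs. The median log2 difference of the 9 mRNAs was 0.23 in pair 1, -0.07 in pair 2 and 0.53 in pair 3, with a mean of 0.23 ± 0.30 (SD, n = 3 pairs), while the median of all genes tested was within 0.01 of 0 in each pair. In pair 3, 7 of the 9 were higher on polyribosomes, in pair 1 there were 6, and in pair 2 there were 3. Higher in all 3 pairs were 3 of the 9 and lower in all 3 were 2, where 30.2% and 30.6% of all genes tested were. All 9 had their lowest polyribosome level in replicate 2, and 6 had their highest in replicate 3. The share of all genes tested with this order was not obtained, so it is not known to be particular to the 9. Summed pericyte and basement membrane markers were also lowest in polyribosome replicate 2, and summed astrocyte and neuronal markers were lowest in polyribosome replicate 1. In total RNA replicate 2 was lowest for 5 and highest for 0, replicate 1 was highest for 6 and lowest for 2, and replicate 3 was highest for Cldn5, Flt1 and Esam and lowest for Cdh5 and Pecam1.

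Within each pair, where library scaling cancels between genes, the log2 difference of Cldn5 exceeded the median of the other 8 by 1.15, 0.48 and 0.47 (mean 0.70 ± 0.39 SD). Cldn5 was singled out after its values were seen, and this excess was not tested. Without Cldn5, the median log2 fold change of the remaining 8 was 0.23, with 5 of them positive. For all 9 it was 0.24 with 6 positive, where 50.1% of all genes tested were positive and their median was 0.00.

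**Figure D3:**
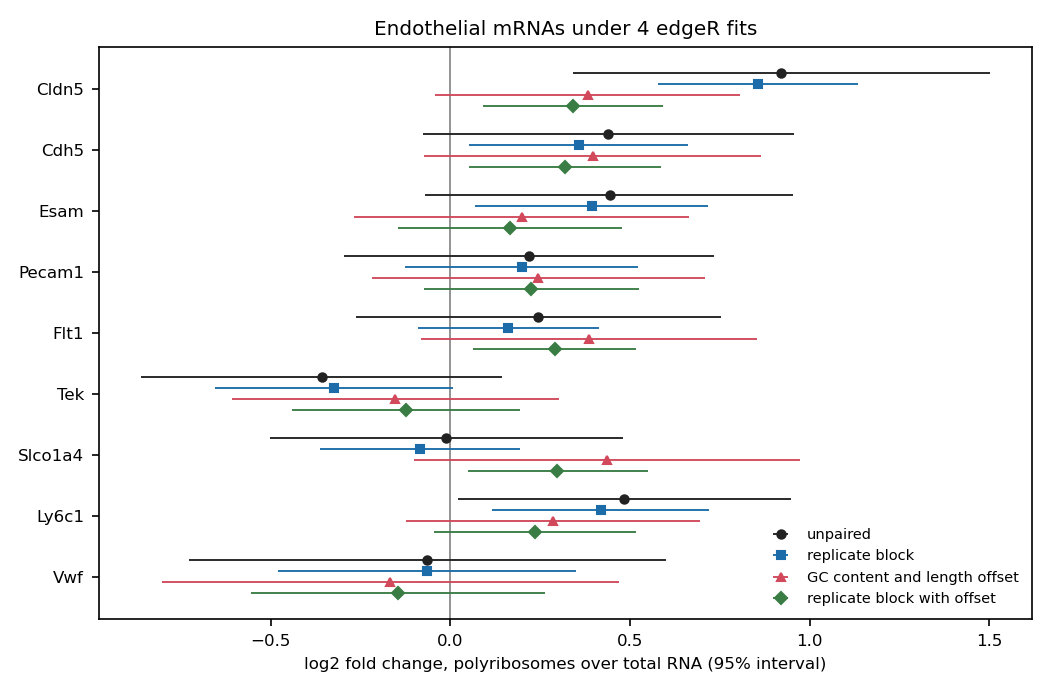
Log2 fold changes of the 9 endothelial mRNAs (polyribosomes over total RNA) with 95% intervals in 4 edgeR fits: unpaired, with the replicate block, with a correction for GC and length, and with both. Cldn5 falls from 0.92 to 0.38 with the correction and Slco1a4 rises from -0.01 to 0.44, while Tek and Vwf stay below 0 in all 4.

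Per kilobase of exon, Cldn5 was the most abundant of the 9 in both groups, with 53.9 ± 19.1 CPM per kb on polyribosomes and 29.7 ± 10.2 in total RNA (SD, n = 3). Ly6c1 followed with 25.4 ± 6.41 and 17.9 ± 2.69. On polyribosomes the ranges of these 2 genes did not meet, but in total RNA they overlapped. Esam, Flt1, Slco1a4 and Cdh5 lay between 11.5 and 15.5 CPM per kb on polyribosomes, and each overlapped its neighbour. In total RNA, Slco1a4, Esam and Flt1 lay between 11.7 and 12.1, with Cdh5 apart from them at 8.00 ± 2.77. Pecam1 (6.77 ± 0.95), Tek (3.92 ± 1.26) and Vwf (1.11 ± 0.38) were the lowest on polyribosomes, with ranges that did not meet. In total RNA Pecam1 (5.35 ± 2.31) and Tek overlapped, and Vwf was apart at 1.16 ± 0.40. In both fractions Cldn5 and Ly6c1 stood first and Pecam1, Tek and Vwf last.

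A wider set of 54 endothelial genes, made up of junction proteins, receptors, transporters, surface or secreted proteins and transcription factors, was compared in the same fits. Of these, 51 were tested, their median log2 fold change was 0.19, and 41 were positive, where 50.1% of all genes tested were. In the unpaired fit 0 passed an adjusted p of 0.01 (edgeR's quasi-likelihood test). With the replicate block 6 were higher and 0 lower. These 6 are 11.8% of the 51, equal to the 11.8% of all genes that this fit called higher. Once GC content and length were also corrected for, 9 were higher (17.6%), where 9.02% of all genes were. Eng and Mfsd2a, called with the block alone, were not among these 9.

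The most abundant of 8 other junction genes were the scaffold Tjp1 and the junction adhesion molecule Jam2. Tjp1 had a log2 fold change of 0.05 and Jam2 of -0.06. Jam2 averaged 96.1 ± 9.21 CPM on polyribosomes and 98.7 ± 19.7 CPM in total RNA. Of 8 other receptors, the block fit called Eng, the TGF-beta co-receptor endoglin, at 0.59 (adjusted p = 6.21e-04, edgeR's quasi-likelihood test). With block and correction Eng was at 0.355 and was not called. The VEGF co-receptor Nrp1 was at 0.05 and Ptprb, the phosphatase that acts on Tie2, at -0.24, neither called. Of the 7 ligands of these receptors, which are not part of the 54, 6 were tested and 0 were called in the unpaired or block fit. Angpt1, the angiopoietin that activates Tie2, was called at 0.70 with block and correction (adjusted p = 0.00462), and was named after its value was seen. The most abundant, Vegfa and Vegfb, had log2 fold changes of 0.14 and 0.26.

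Of 13 other transporters of the barrier, the block fit called Slc2a1 and Mfsd2a. Slc2a1, the glucose transporter GLUT1 that glia also express, averaged 301 ± 110 CPM on polyribosomes against 177 ± 15.9, with a log2 fold change of 0.77 unpaired (adjusted p = 0.0351) and 0.69 with the block (adjusted p = 5.91e-06). Mfsd2a, a lipid transporter that restrains transcytosis, was at 0.56 with the block (adjusted p = 3.12e-04, edgeR's quasi-likelihood test). With block and correction Mfsd2a was at 0.34 and was not called. Slco1c1, a thyroxine transporter of endothelium and astrocytes, averaged 215 ± 45.2 and 170 ± 16.5 CPM, and was not called in the unpaired fit (log2 fold change 0.33) or with the block. It was called with block and correction, at 0.55 (adjusted p = 6.11e-05). Of 15 other surface and secreted proteins, 14 were tested and the block fit called Pltp, a phospholipid transfer protein, at 0.81 (adjusted p = 1.58e-07), and Thbd, the anticoagulant receptor thrombomodulin, at 0.58 (adjusted p = 3.03e-04). Itm2a was not called in that fit, at 0.33 (adjusted p = 0.0383), and was called with block and correction, at 0.51 (adjusted p = 3.42e-04). Of 10 transcription factors, 8 were tested and 0 were called. Ets1 averaged 20.9 ± 3.65 CPM on polyribosomes against 21.0 ± 3.18, and Lef1 had a log2 fold change of 0.30.

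Markers of the cells around the vessel were compared in the same fits. Of all genes tested, the block fit called 11.8% higher and 13.2% lower. The 7 genes of the vascular basement membrane had a median log2 fold change of 0.65 in the unpaired fit, which called 0 of them. With the block 6 of them were called higher. Among them Hspg2, Fn1, Col4a2 and Col4a1, encoding perlecan, fibronectin and collagen IV chains, were at 0.83, 0.69, 0.73 and 0.65 unpaired. Their summed level of 1090 to 1400 CPM on polyribosomes did not overlap the 777 to 845 CPM of total RNA. The 5 markers of perivascular fibroblasts included the only vascular genes called in the unpaired fit, Col1a1 at 1.20 (adjusted p = 0.00186) and Col1a2 at 1.03 (adjusted p = 0.00313). Of 10 pericyte markers 8 were tested. The unpaired fit called 0 of these. With the block, 4 were called higher, Cspg4 (0.71) and Vtn (0.71) among them. Rgs5, a pericyte regulator of G protein signalling, was called lower with the block at -0.66 (adjusted p = 1.06e-05, edgeR's quasi-likelihood test). With block and correction Rgs5 was at -0.28 and was not called. The difference between any of these lists and the endothelial genes was not tested.

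**Figure D4:**
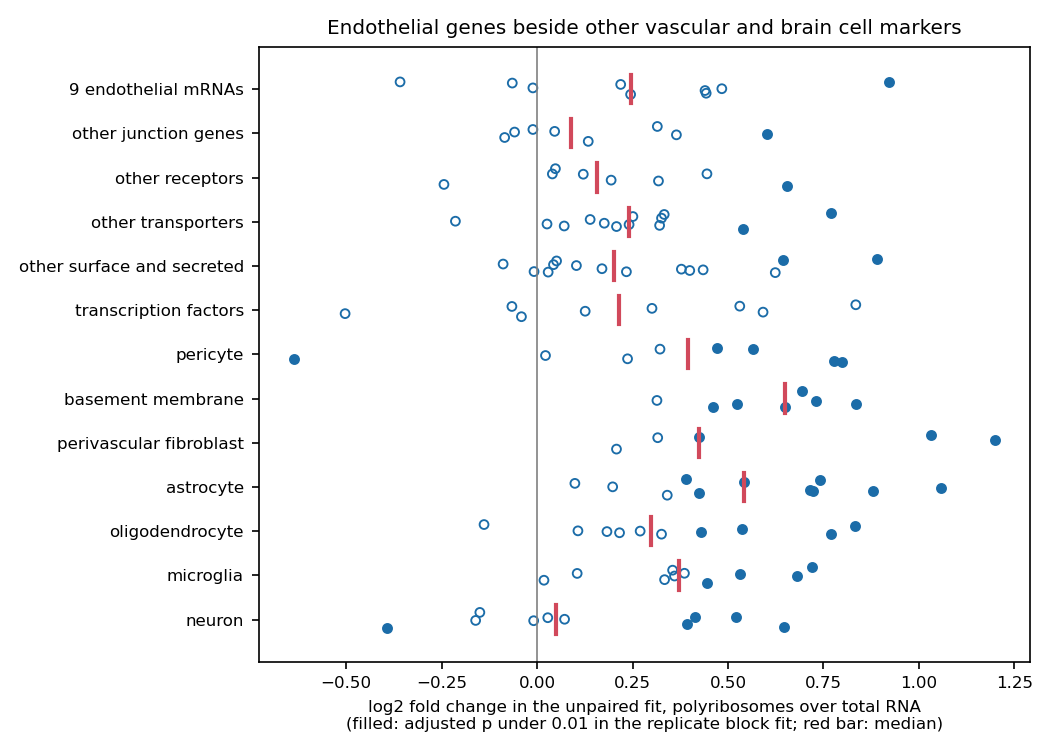
Log2 fold change of each tested gene in the unpaired edgeR fit (polyribosomes over total RNA) for the 9 endothelial mRNAs, 5 wider endothelial lists, other vascular cells and other brain cells. Filled points passed an adjusted p of 0.01 with the replicate block and red bars are medians, which lie at 0.24 for the 9 mRNAs, 0.65 for basement membrane and 0.54 for astrocytes.

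Markers of other cell types moved between the fractions beside the endothelial mRNAs, and their part in the differences above was not tested. All 11 astrocyte markers had positive log2 fold changes, 8 of them called with the block. Their summed level of 45300 to 49800 CPM on polyribosomes did not overlap the 34800 to 40700 CPM of total RNA. Most of that sum was Slc1a2, at 32000 ± 1590 CPM on polyribosomes and 27900 ± 1810 CPM in total RNA. Slc1a2 was not called in the unpaired fit (log2 fold change 0.20) or with the block, and was called with block and correction (0.59). With the block 4 of 10 microglia markers and 4 of 10 oligodendrocyte markers were called higher. Of the 10 neuronal markers the block fit called 4 higher, Syp, Grin1, Dlg4 and Slc17a7, and 1 lower, Gad1. The block fit called 11.8% of all genes tested higher and 13.2% lower. With block and correction Dlg4 was still called, Syp, Grin1, Slc17a7 and Gad1 were not, and Gria2 was called at 0.57. The unpaired fit called 0 of the astrocyte, microglia and neuronal markers and 1 oligodendrocyte marker, which was higher. The summed level of the red blood cell markers varied more between preparations than between the fractions of a preparation. They summed to 1180, 343 and 262 CPM on polyribosomes 1 to 3 and to 916, 398 and 228 CPM in total RNA 1 to 3, with preparation 1 the highest in both. Single red blood cell markers went both ways with the block, Hba-a1 at 0.40 and Alas2 at -0.27, neither called. Of 5 smooth muscle markers only Myl9 was tested (0.65 unpaired, not called), and Acta2 averaged 0.87 and 1.38 CPM. Of 4 perivascular macrophage markers 0 were called in the unpaired or block fit, and Mrc1 (0.54) and Cd163 (1.32) were called with block and correction. Of 4 choroid plexus markers Ttr and Folr1 were called with the block, at 0.80 and 0.98. With block and correction Ttr was still called and Folr1 (0.67) was not. Platelet markers, whose cells also hold Vwf and Pecam1, summed to 11.7 to 16.5 CPM in the 6 libraries. No marker in these lists was at 0 in all libraries.

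The genes whose profile over the 6 libraries was closest to the mean profile of the 9 were Eif2b3, Nfe2l2, Gabarap, Pnpla7 and Ankmy2, of 10640 genes outside the lists with at least 5 CPM on average. Their root mean square differences from it were 0.06 to 0.09 on the log2 scale. These 5 were picked as the smallest of 10640 distances, so they do not show how close a gene usually lies. The 9 members lay between 0.13 (Ly6c1) and 0.49 (Cldn5) from their own mean, so that Ly6c1 was the most and Cldn5 the least typical of the group.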

How the data were processed

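The authors depleted ribosomal RNA, made strand-specific libraries, mapped paired reads with STAR 2.5.2b to GRCm38 (mm10), assigned them to genes of the basic Gencode vM6 set and deposited unnormalized whole-number counts for 21958 protein-coding genes. Use of strand in the counting is not given in the sources used here. The same table holds the authors' DESeq2 comparison of the groups (mean, fold change, error, statistic and p-values), which was not used.

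Counts were tested with edgeR 4.0.16 in R 4.3.3 (TMM, filterByExpr, quasi-likelihood test, group as the only term, 12255 genes). Benjamini-Hochberg adjustment ran over all genes tested, with the study's threshold of 0.01. The alternatives tried were a replicate block, a spline correction of each library for GC and length (GENCODE vM21, 99.6% of genes tested), DESeq2 1.42.0, 3 other scalings, 2 other filters, and leaving out libraries or pairs. Pair differences used log2 CPM with a prior count of 2. Per-kilobase levels used the union of exons in GENCODE vM21. Same-numbered libraries share the first part of their column name. After subtraction of group means they correlated at 0.37, 0.26 and 0.38 over all genes, and were taken as pairs. The methods describe aliquots of pooled mice, without saying whether each preparation had its own, so p-values measure the spread between these libraries, which may be technical. Poisson and binomial intervals cover counting error only. No library pair was identical.

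The 9 genes and the lists were chosen with earlier results of these data known. Other genes were named by rule: in each list, up to 3 with the largest log2 fold change among those passing in either fit, and the 2 most abundant. A gene that the rule picked is not reported here. The unpaired and blocked edgeR fits, with and without the correction, were also run on simulated data in which the changed genes were known. Those data were drawn without a GC or length trend between libraries, so they do not test what the correction removes. DESeq2 was not run on them.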

Additional observations from a re-analysis of the deposited data

How the results depend on the processing

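The number of genes called over the whole table changed with the model. In the unpaired edgeR fit 87 genes were higher and 289 lower. The higher count became 42 with scaling by total counts alone (which moved the median of all genes to -0.11), 321 with DESeq2, 476 over all genes with at least 1 count, 31 with the GC and length offset and 799 at an adjusted p under 0.05, and the lower count became 566, 93 and 1085 under the last 3. With the replicate block 1441 were higher and 1622 lower, and with the block and the offset 1106 and 879. Leaving out single libraries gave 0 to 61 higher and 22 to 208 lower, and leaving out single pairs in the block fit gave 518, 627 or 1470 and 682, 910 or 1602. The fewest were called without total RNA replicate 2.

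Of the 9 endothelial mRNAs, 0 passed in the unpaired fit and 1, Cldn5, passed over all genes with at least 1 count, at an adjusted p under 0.05, and with the replicate block. It also passed in the block fit without pair 2 or 3 but not without pair 1 (0.60, adjusted p = 0.0108), nor with the block and the offset. Leaving out libraries or pairs gave 0 to 1 called. Over 18 alternatives Cldn5 ranged from 0.34 to 1.14 (adjusted p from 2.14e-08 to 0.247, edgeR and DESeq2) and Tek from -0.67 to -0.12. The median of the 9 ranged from 0.15 to 0.46 without single libraries, and was -0.003 in the block fit without pair 3. In the wider endothelial set 0 genes passed unpaired, 1 (Pltp) with DESeq2, 2 (Pltp and Slc2a1) over all genes with at least 1 count, 3 (with Thbd) at an adjusted p under 0.05, 6 with the block, 2, 4 or 6 in the block fit without pair 2, 1 or 3, and 9 with the block and the offset (17.6% of the 51, where that fit called 9.02% of all genes higher).

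Signs turned only for genes that were not called. Slco1a4 became 0.01 with DESeq2 (0.012) and over all genes with a count (0.010), 0.00 with at least 10 counts in every library, 0.44 with the offset and 0.30 with block and offset, and 0.068 in the block fit without pair 1, ranging from -0.26 to 0.19 without single libraries. Pecam1 became -0.02 and Flt1 -0.003 in the block fit without pair 3. Flt1 ranged from -0.10 to 0.46 and Vwf from -0.36 to 0.30 without single libraries. The mean pair difference of Vwf, -0.06, became -0.16 with total counts alone. The causes were not tested. Total RNA replicate 3, with 12 to 157 counts per endothelial gene, limits what pair 3 can show.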
